A study of Mus musculus with 21 samples.

Results

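The genes described here are type I interferon-stimulated antiviral genes, listed by name together with the transcription factors and receptor subunits of the pathway. The list holds 38 genes and sets no threshold on their values. Of the 38, 35 were measured by a probe set with a single gene symbol, out of 22180 genes measured in this way. Oas1a shares its probe set with Oas1g and Dtx3l shares one with Parp9, so neither could be read alone, and Ifi44 is not among the probe sets named here.

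Levels were measured in mouse mammary carcinoma cells on 21 Affymetrix whole-transcript arrays, and all values below are log2 signals. The groups were Py8119 cells in culture (3 arrays), Py117 cells in culture (3), Py8119 tumours (5), Mixed tumours grown from Py8119 and Py117 cells implanted at 1 to 1 (5), and Py117 tumours (5). Both lines come from transgenic MMTV-PyMT mice, in which a mammary promoter drives the polyoma middle T oncogene. According to the design text, tumours of Py117 respond to radiation and those of Py8119 resist it, and the immune surroundings of both are the subject of the series. No cells or tumours here were treated: tumours grew from 1000000 cells injected in Matrigel and saline into mammary fat pad 4 and were taken on the day on which irradiation would usually fall. Each line stands as 1 line, so a difference between them is a difference between these lines and not between classes of tumour. Strain, age and sex of the host mice were not given in the sources used here, and the share of each line left in the Mixed tumours at harvest was not given either. Tumour RNA came from whole homogenised tissue and holds host cells as well as carcinoma cells.

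Type I interferons bind the receptor made of Ifnar1 and Ifnar2, whose kinases Jak1 and Tyk2 phosphorylate Stat2 among others. Stat2 and Irf9 are parts of the complex ISGF3, which binds the interferon-stimulated response element (ISRE) in the promoters of antiviral genes. Irf7 is itself induced and then drives further interferon transcription, while Usp18 is an induced inhibitor that acts at the receptor. Interferon gamma signals to a different element, the gamma-activated site (GAS), which controls Irf1 among others. In tumours, cytosolic nucleic acid in carcinoma cells and interferon made by infiltrating cells are both known routes to this programme.

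The ISRE is what many of these genes have in common beyond their names, so the promoter stretches that hold it are shown for 7 measured members whose matches lie before the transcription start. The search used GAAANNGAAA on either strand (TTTCNNTTTC on the other), in windows from 250 bases before to 50 bases after the transcription start, taken from RefSeq on GRCm38.p6. Capitals mark the matches, overlapping ones run together, and each stretch reads 5′ to 3′ along the strand of the gene with 15 bases on either side.
Isg15, chr4:156200860-156200911, minus strand: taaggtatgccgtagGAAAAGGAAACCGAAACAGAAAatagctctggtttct
Ifit1, chr19:34640770-34640828, plus strand: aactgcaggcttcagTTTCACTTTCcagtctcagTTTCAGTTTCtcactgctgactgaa
Ifit3, chr19:34583358-34583431, plus strand: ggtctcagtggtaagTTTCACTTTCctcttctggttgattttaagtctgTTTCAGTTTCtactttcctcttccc
Bst2, chr8:71537572-71537617, minus strand: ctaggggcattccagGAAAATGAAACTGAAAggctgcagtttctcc
Oas3, chr5:120777710-120777749, minus strand: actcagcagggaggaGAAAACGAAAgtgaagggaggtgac
Rsad2, chr12:26456548-26456587, minus strand: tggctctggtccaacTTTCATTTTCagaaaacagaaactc
Stat2, chr10:128270261-128270300, plus strand: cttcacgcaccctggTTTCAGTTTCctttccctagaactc
Isg15 held 3 overlapping matches, starting 78, 72 and 66 bases before the start, and Ifit1 held 2, starting 104 and 85 bases before it. Matches in Ddx58, Eif2ak2, Ifih1 and Ifitm3 began past the start, those of Oas1a belong to a gene not measured alone, and Trim30a, with 1 match in each of 2 windows, was mostly at background, so these are not shown. Windows were found for 29 of the 38 genes. At least 1 match occurred in 13 of these 29 genes (44.8%), against 1079 of 27025 genes with a window in the whole table (3.99%). The window of Irf7 held no match to these letters, and neither did those of Cmpk2, Herc6, Oasl1, Oasl2 and Irf9, which draws nothing about the factors that bind there. Irf1 was searched for the GAS letters TTCNNNGAA, which read the same on both strands, and held 1 match starting 90 bases before the start. It is shown because Irf1 did not follow the other transcription factors in the tumours.
Irf1, chr11:53769909-53769947, plus strand: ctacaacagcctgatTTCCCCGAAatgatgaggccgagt
The GAS letters occurred in 10 of the 29 genes (34.5%), against 9.55% of all genes with a window. Besides Irf1 these were Bst2, Eif2ak2, Ifi35, Ifit2, Ifitm3, Ifnar1, Ifnar2, Isg20 and Oas1a. Of these, Bst2, Eif2ak2, Ifi35, Ifit2, Ifitm3 and Ifnar2 were called lower in Py8119 than in Py117 tumours. Ifnar1 was called higher, Isg20 was not called and Oas1a was not measured alone. Whether the match goes with the differences between tumours was not tested.

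Background signal was read from 1394 genes for smell and pheromone receptors (olfactory and vomeronasal), whose median level was 3.27. Their 95th percentile, 5.31, is the level at or under which a gene is called at background here. Mx1, Mx2 and Trim30a had group means at background in both cultures and in the Py8119 tumours, and Ifit1 did in the Py117 cultures. No member's mean was at background in the Mixed or Py117 tumours. The labels call the replicates biological but name no culture or animal, and they give no hybridisation date, so batches could not be examined. A gene was called when its Benjamini-Hochberg adjusted p from limma, over all 22180 genes, was under 0.05.

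Averaged over the 35 measured members, the level per array was 6.61, 6.35 and 6.51 in the Py8119 cultures and 6.53, 6.44 and 6.52 in the Py117 cultures. It was 7.48, 7.43, 7.46, 7.69 and 7.80 in the Py8119 tumours, 8.05, 8.22, 8.69, 8.31 and 8.15 in the Mixed tumours and 8.74, 9.20, 10.04, 8.98 and 9.03 in the Py117 tumours. The culture groups overlapped, and the tumour groups did not: each Mixed tumour stood above each Py8119 tumour and below each Py117 tumour. The map of all members by array shows the same order for most genes, with the receptor subunits, Irf1, Ifit3 and Isg20 as exceptions.

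**Figure D1:**
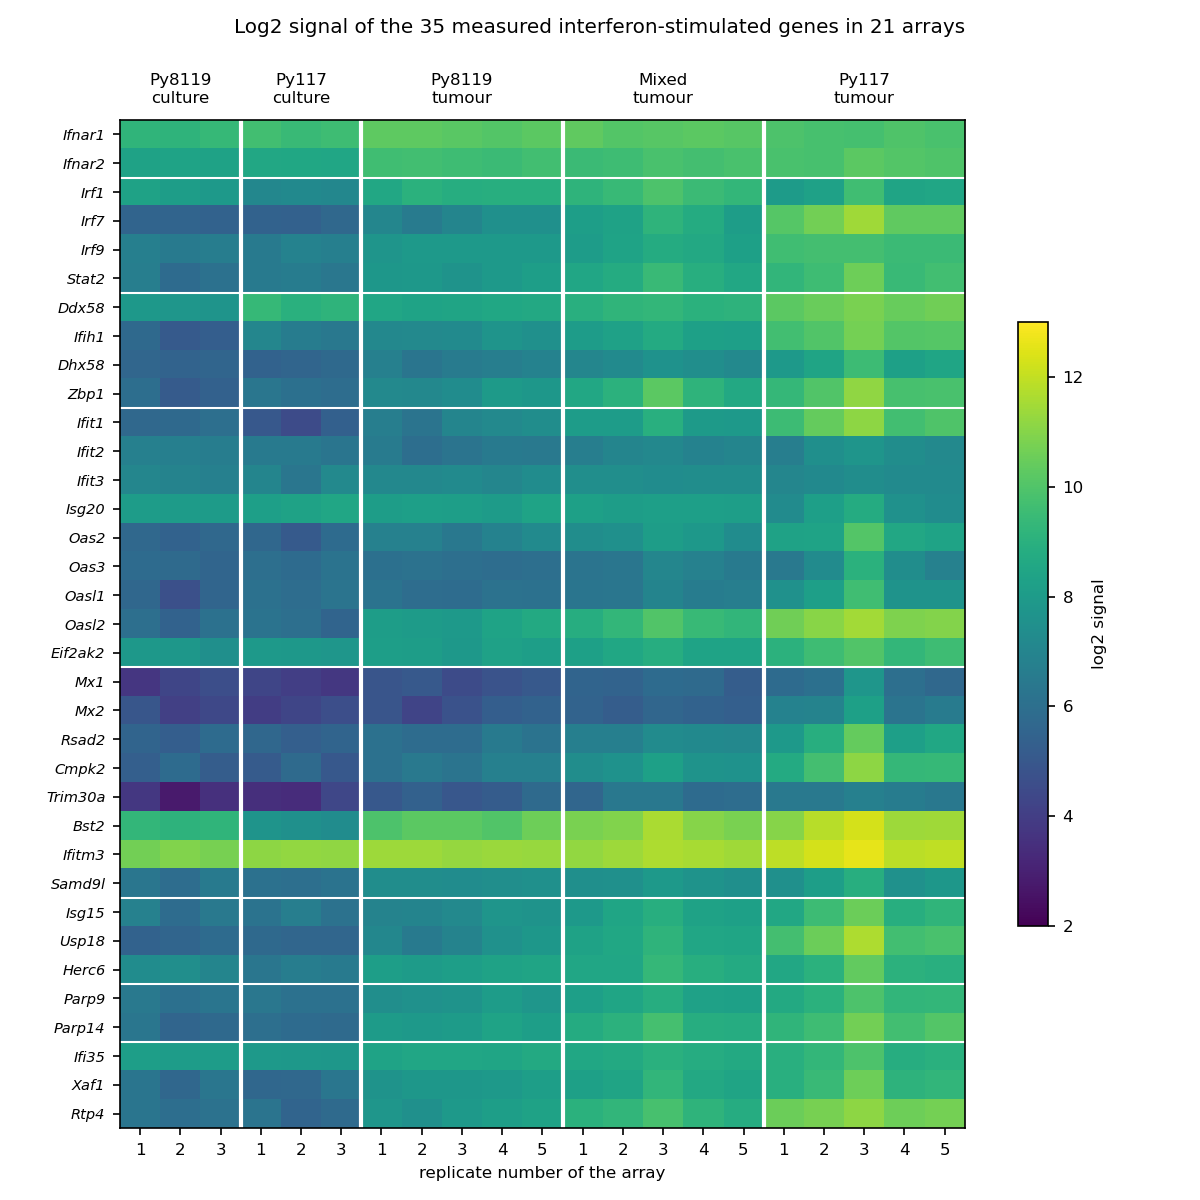
Log2 signal (colour) of the 35 measured members, grouped by role from receptor subunits at the top, in each of the 21 arrays (columns, by group and replicate number). Most rows are dark in both cultures and brightest in the Py117 tumours, with Py117 tumour 3 the brightest column, while Ifit3 and Isg20 change little in colour.

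In culture the members did not move together between the lines. Of the 35, 4 were called higher and 3 lower in Py8119 than in Py117 cells, where 14.5% and 12.3% of all genes were called. The median difference over the members was -0.01, and that over all genes was -0.01. Higher in Py8119 cells were Bst2, Irf1, Ifit1 and Herc6, and lower were the RNA sensor genes Ddx58 and Ifih1 together with Ifitm3. Without Py8119 culture 1 the count of lower members was 5. All Py8119 arrays lay above all Py117 arrays in 6 members and below them in 8, against 21.8% and 20.2% of all genes.

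Bst2 encodes tetherin, which holds budding viruses at the cell surface. Its probe set (17510345) read 9.27, 9.10 and 9.20 in the Py8119 cultures, against 7.71, 7.54 and 7.35 in the Py117 cultures, so every Py8119 array lay above every Py117 array. The difference was 1.66 ± 0.12 (log2, SE; 3.16-fold, adjusted p = 8.39e-05 by limma). Irf1, a transcription factor that interferons induce, read 8.34, 8.13 and 7.94 in the Py8119 cultures and 7.08, 7.20 and 7.08 in the Py117 cultures, again without overlap, a difference of 1.01 ± 0.12 (adjusted p = 0.000969). Herc6, the ligase that attaches Isg15 to proteins in mice, read 7.37, 7.42 and 6.99 in the Py8119 cultures and 6.31, 6.66 and 6.49 in the Py117 cultures (0.77 ± 0.15, adjusted p = 0.00813). The groups did not overlap for Herc6 either. Ifit1, which binds viral RNA lacking host cap marks, read 5.70, 5.77 and 6.02 in the Py8119 cultures and 5.02, 4.50 and 5.38 in the Py117 cultures. All but the highest of the Py117 values were under the background level, and the difference of 0.86 fell to 0.50 when values under background were raised to it. Its call (adjusted p = 0.0252) was lost without Py8119 culture 3 or Py117 culture 1 (differences 0.77 to 0.89).

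Ddx58 encodes RIG-I and Ifih1 encodes MDA5, the sensors of short and of long double-stranded RNA in the cytosol. Ddx58 read 7.89, 7.76 and 7.70 in the Py8119 cultures, against 9.35, 8.96 and 9.17 in the Py117 cultures, 2.6-fold lower in Py8119 (-1.38 ± 0.12, adjusted p = 0.000246 by limma). Ifih1 read 5.76, 5.10 and 5.27 in the Py8119 cultures, against 7.06, 6.61 and 6.41 in the Py117 cultures (-1.31 ± 0.22, adjusted p = 0.00434). Neither gene's groups overlapped, and 2 of the Py8119 values of Ifih1 were under the background level. Ifitm3, a membrane protein that blocks virus entry from endosomes, read 10.67, 10.91 and 10.73 in the Py8119 cultures and 11.14, 11.22 and 11.16 in the Py117 cultures. That difference was small (-0.41 ± 0.10, adjusted p = 0.0206). Its call was lost when any 1 of 5 of the 6 arrays was left out, every one but Py8119 culture 2, with differences from -0.43 to -0.36.

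The factors that carry the type I signal were at like levels in the cultured lines. Irf7 read 5.53, 5.54 and 5.46 in the Py8119 cultures and 5.44, 5.43 and 5.71 in the Py117 cultures, with overlap and a difference of -0.01. Irf9 averaged 6.65 ± 0.11 in the Py8119 cultures and 6.71 ± 0.18 in the Py117 cultures (SD, n = 3 each), and Stat2 averaged 6.22 ± 0.44 in the Py8119 cultures and 6.48 ± 0.13 in the Py117 cultures. Neither was called (Irf9 -0.06, Stat2 -0.26). The receptor subunits lay slightly lower in Py8119 cells without reaching the threshold: Ifnar1 averaged 9.24 ± 0.12 against 9.57 ± 0.10 in Py117 cells (adjusted p = 0.0581 by limma), and Ifnar2 averaged 8.34 ± 0.03 against 8.55 ± 0.05 (adjusted p = 0.122).

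Most of these transcripts were higher in tumours than in the cultured cells of the same line, and the rise was larger in Py117. In Py117 tumours 32 of the 35 members were called higher than in Py117 culture and 0 lower by limma (0 lower at an unadjusted p under 0.05), where 12.4% of all genes were called higher and 18.3% lower. The median difference was 2.90, against -0.09 over all genes, and 30 members were called with at least a 2-fold rise. For 33 members all Py117 tumours lay above all Py117 cultures (13.4% of all genes did so), and for 0 they lay below (22.1%). In Py8119 the tumours lay above all cultures for 30 members and below for 1, Ifit2 (background 16.7% and 21.5%). In Py8119 tumours 31 members were called higher than in Py8119 culture and 0 lower by limma (1 lower at an unadjusted p under 0.05; background 16.3% and 20.9%), but the median difference was 1.01 (-0.05 over all genes) and 19 rose at least 2-fold. In whole tumours, fewer cells of a type and less RNA per cell cannot be told apart, and sample type and any unrecorded batch cannot be told apart between tumours and cultures.

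Ifit1, Oasl2, Irf7 and Rtp4 rose furthest in Py117 tumours. Irf7, the factor that amplifies interferon production, averaged 10.57 ± 0.52 in the Py117 tumours and 5.53 ± 0.16 in the Py117 cultures (SD, n = 5 and 3), a rise of 5.04 ± 0.26 (SE; 32.9-fold, adjusted p = 2.67e-07 by limma). The culture level of Irf7 was just above background (5.31), so the size of this fold is uncertain. Oasl2, a relative of the oligoadenylate synthetases, averaged 11.00 ± 0.32 in the Py117 tumours and 5.92 ± 0.33 in the Py117 cultures, with culture values of 6.19, 6.02 and 5.55 (5.07 ± 0.20, adjusted p = 4.66e-08). Rtp4, an interferon-induced transporter protein, read 6.22, 5.56 and 5.81 in the Py117 cultures and rose by 4.88 ± 0.18 in the tumours (adjusted p = 3.41e-08). All 5 Py117 tumours were above all 3 Py117 cultures for each of these. Ifit1 rose by 5.18 ± 0.34 (adjusted p = 1.49e-06). Since its culture level was at background, the rise was 4.81 with values under background raised to it. The receptor subunit Ifnar2 rose by 1.44 in Py117 tumours and by 1.28 in Py8119 tumours. In Py117, Ifnar1 (0.29), Ifit3 (0.39) and Isg20 (-0.51) were not called. Oas3 (1.37 ± 0.45, adjusted p = 0.0413) was the call that hung most on single arrays: it was lost without Py117 culture 1, 2 or 3 or Py117 tumour 2 or 4 (differences 1.29 to 1.46), and without Py117 tumour 3 its difference was 0.97.

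In Py8119 tumours the furthest rises were those of Oasl2, Parp14, Zbp1 and Ifih1. Oasl2 averaged 8.23 ± 0.30 in the Py8119 tumours and 5.86 ± 0.37 in the Py8119 cultures (SD, n = 5 and 3; culture values 6.04, 5.44 and 6.11), a rise of 2.37 ± 0.20 (SE, adjusted p = 1.15e-05 by limma). Parp14, an ADP-ribosyltransferase, averaged 8.10 ± 0.18 in the Py8119 tumours and 5.88 ± 0.39 in the Py8119 cultures (2.22 ± 0.17, adjusted p = 6.34e-06). Zbp1, which senses left-handed nucleic acid, averaged 7.50 ± 0.40 in the Py8119 tumours and 5.51 ± 0.43 in the Py8119 cultures (1.99 ± 0.24, adjusted p = 0.000122). Ifih1 rose by 1.97 ± 0.17 (adjusted p = 1.49e-05). Groups did not overlap for these 4 genes. Ifit2 (-0.38), Ifit3 (0.28), Isg20 (0.14) and Mx2 (0.47) were not called. The called rises of Mx1 and Trim30a compare means that both lay at background, so no fold is given. With values under background raised to it the difference for Trim30a was 0.12, that for Mx1 was 0, and 26 members were called. The smaller rises hung on single arrays. Oas3 (0.29) lost its call without Py8119 culture 3 or Py8119 tumour 1, 2, 3 or 5 (differences 0.21 to 0.29), and Eif2ak2 (0.39) without Py8119 culture 3 or Py8119 tumour 1, 2, 4 or 5 (differences 0.27 to 0.38). Rsad2 (0.55) lost it without Py8119 culture 1 or 2 (differences 0.42 to 0.55), Isg15 (0.91) without Py8119 culture 2 (difference 0.66), and Mx1 (0.66) without Py8119 culture 1 or Py8119 tumour 2 or 5 (differences 0.41 to 0.61). Oasl1 kept its call in each case, with a difference of 0.40 without Py8119 culture 2 against 0.71.

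The lines differed in how far the tumours stood above the cultures. In the interaction, the Py8119 tumour-minus-culture difference less that of Py117, 25 members were called lower and 1 higher (background 5.99% and 7.5%), with a median of -1.59 against 0.03 over all genes. The gap was widest for Ifit1 (-4.10 ± 0.45, adjusted p = 7.89e-06 by limma), Irf7 (-3.42 ± 0.35, adjusted p = 3.81e-06), Cmpk2 (-3.32 ± 0.52, adjusted p = 0.000314) and Rtp4 (-3.05 ± 0.26, adjusted p = 6.74e-07). Ifnar1 went the other way, with a larger rise in Py8119 (0.96) than in Py117 (0.29), an interaction of 0.67 ± 0.13 (adjusted p = 0.00168). Bst2 combined a higher level in Py8119 culture with a smaller rise: 1.01 in Py8119 and 4.06 in Py117 (interaction -3.05 ± 0.30, adjusted p = 2.96e-06). The 9 members not called in the interaction were Ifit3, Ifitm3, Ifnar2, Irf1, Isg20, Oas3, Oasl1, Samd9l and Trim30a. The call of Mx1 (-1.59) was lost without Py8119 culture 2 or 3 or Py117 culture 2 or 3 or Py8119 tumour 1, 3 or 4 (differences -1.59 to -1.38), and with values under background raised to it the interaction was -0.98, not called. Ddx58 (-0.63) lost its call without Py8119 culture 1 or Py117 culture 2 (differences -0.58 to -0.53), and Ifi35 (-0.92) without Py117 culture 3 (difference -0.89).

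**Figure D2:**
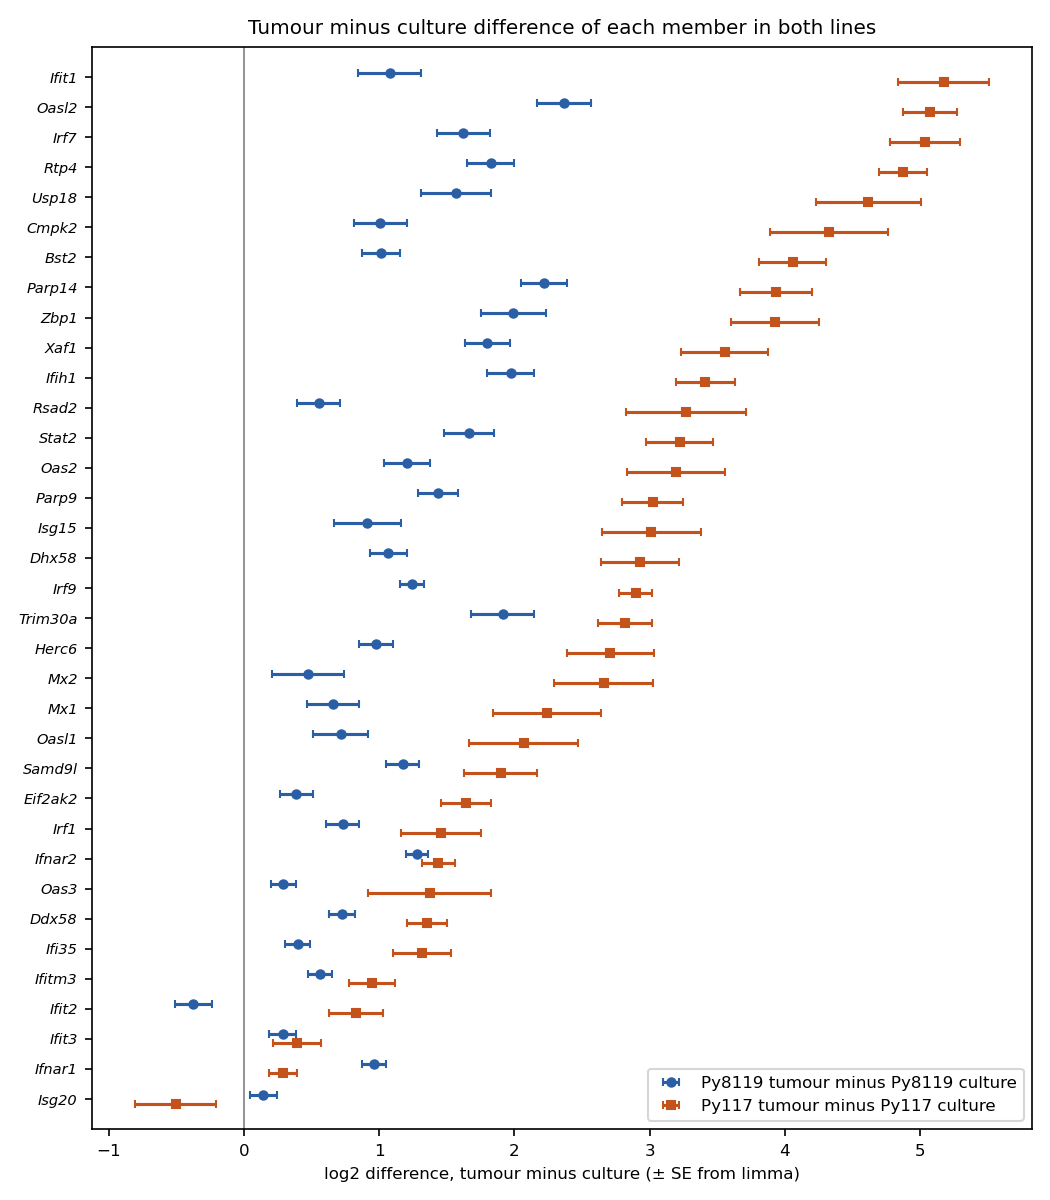
Tumour minus culture difference of each measured member (log2, x axis) in Py8119 (circles) and in Py117 (squares), with bars of 1 SE from limma and genes ordered by the Py117 difference. Squares lie to the right of circles for most genes, from 5.18 against 1.08 for Ifit1, while Ifnar1 and Isg20 show the opposite order.

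Between tumours of the unmixed lines, 31 of the 35 members were called lower in Py8119 than in Py117 tumours and 1 higher, where 16.5% and 21% of all genes were called. The median difference was -1.72, that over all genes 0.01, and 25 members were called with at least a 2-fold lower level. In 30 members every Py8119 tumour lay below every Py117 tumour, as did 11.9% of all genes. Irf7, Ifit1, Cmpk2 and Usp18 differed most, Ifnar1 was the member called higher, and Ifit3, Irf1 and Isg20 were not called. The plot of 8 members by group shows these patterns. Without Py117 tumour 3, the array with the highest levels, the median was -1.53.

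**Figure D3:**
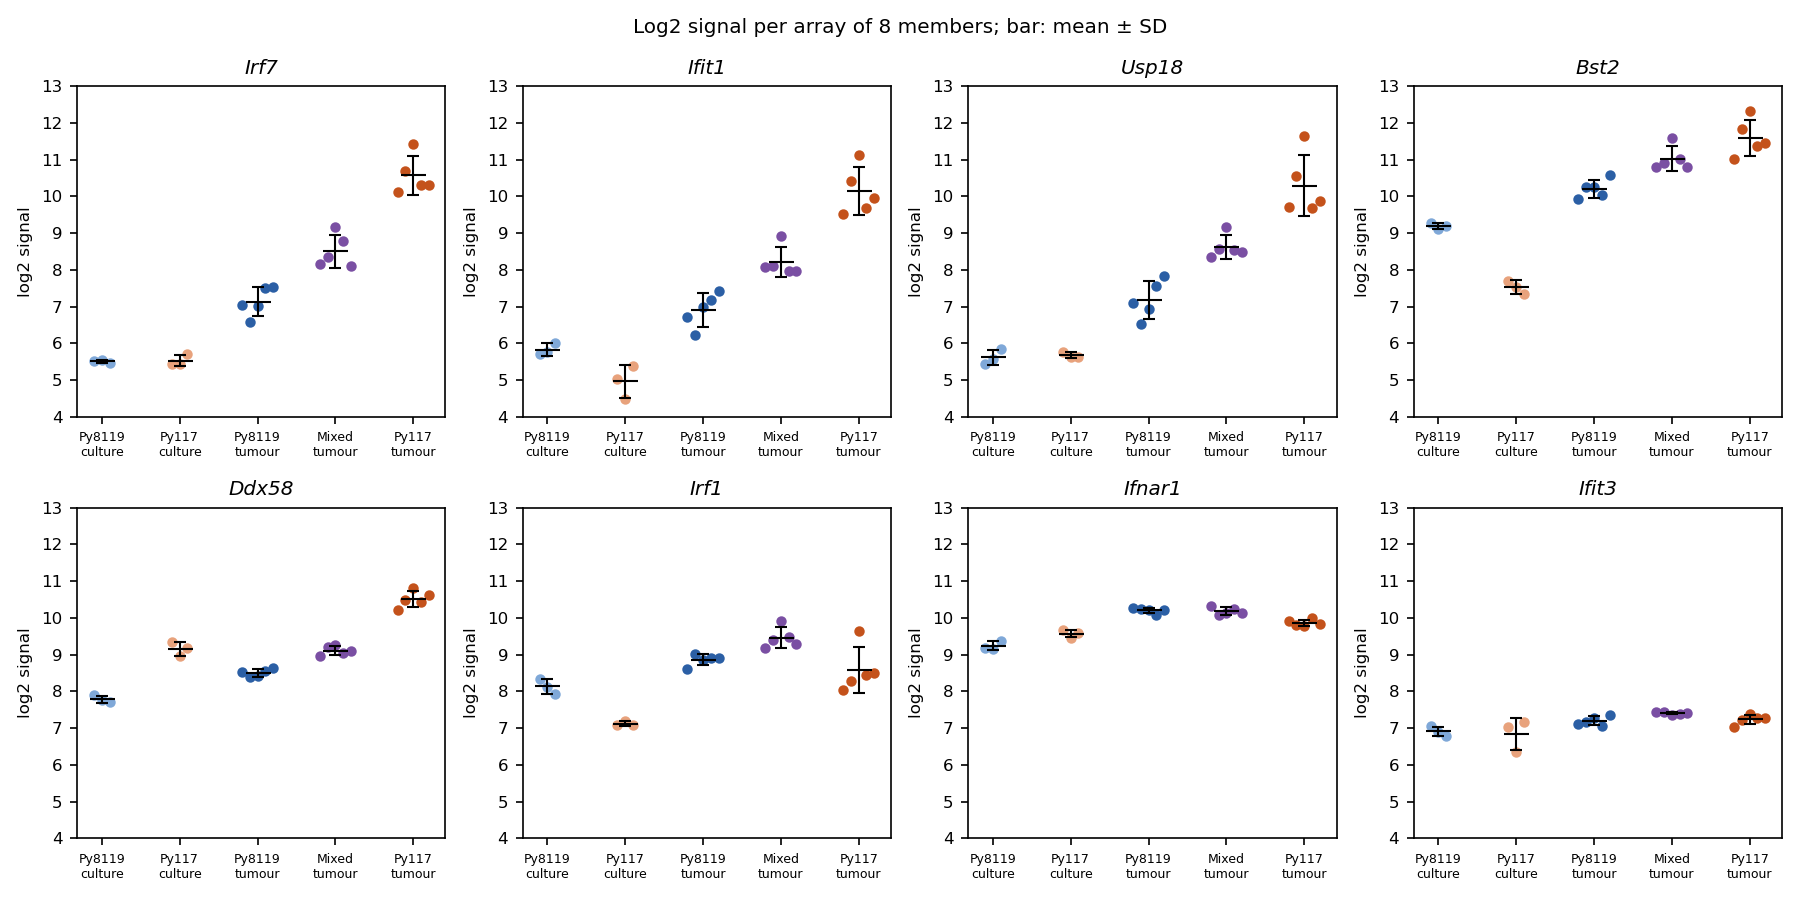
Log2 signal of 8 members in each array (points) with the group mean and SD (bars, n = 3 for cultures and 5 for tumours). Irf7, Ifit1 and Usp18 climb from Py8119 to Mixed to Py117 tumours, Ddx58 is lower in Py8119 than in Py117 in culture and in tumours, Irf1 peaks in the Mixed tumours, and Ifit3 stays within a narrow range.

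Between Py8119 and Py117 tumours the receptor subunits differed little and in opposite directions. Ifnar1 (probe set 17327069) read 10.25, 10.25, 10.20, 10.07 and 10.21 in the Py8119 tumours, 10.32, 10.07, 10.14, 10.25 and 10.14 in the Mixed tumours and 9.91, 9.80, 9.76, 9.98 and 9.83 in the Py117 tumours. It was higher in Py8119 tumours by 0.34 ± 0.08 (log2, SE; adjusted p = 0.00163 by limma), with no overlap. Ifnar2 (17327038) read 9.63, 9.69, 9.60, 9.51 and 9.67 in the Py8119 tumours, 9.49, 9.59, 9.85, 9.73 and 9.84 in the Mixed tumours and 9.86, 9.79, 10.23, 10.08 and 9.95 in the Py117 tumours. It was lower in Py8119 tumours by 0.36 ± 0.10 (adjusted p = 0.00573), also without overlap, though the closest arrays were near each other.

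Of the transcription factors, Irf7 differed most. Irf7 (17497813) read 7.03, 6.59, 7.01, 7.51 and 7.52 in the Py8119 tumours, 8.16, 8.35, 9.16, 8.78 and 8.10 in the Mixed tumours and 10.12, 10.68, 11.43, 10.29 and 10.31 in the Py117 tumours. The Py8119 level was 10.8-fold lower than that of Py117 tumours (-3.43 ± 0.25, adjusted p = 4.56e-09 by limma), and the 3 groups did not overlap. Irf9, the DNA-binding part of ISGF3, read 7.75, 7.92, 7.95, 7.91 and 7.90 in the Py8119 tumours, 8.09, 8.37, 8.78, 8.64 and 8.27 in the Mixed tumours and 9.62, 9.72, 9.71, 9.49 and 9.50 in the Py117 tumours on probe set 17300591 (Py8119 minus Py117 -1.72 ± 0.11, adjusted p = 1.31e-09). Stat2 (17238367) read 7.81, 7.86, 7.65, 7.95 and 8.17 in the Py8119 tumours, 8.49, 8.75, 9.44, 8.89 and 8.59 in the Mixed tumours and 9.22, 9.60, 10.56, 9.47 and 9.66 in the Py117 tumours. Its Py8119 tumours were all below its Py117 tumours (-1.81 ± 0.21, adjusted p = 1.59e-06), while Mixed tumour 3 lay above the lowest Py117 tumour. Irf1 (17249593), which interferon gamma also induces, read 8.61, 9.02, 8.86, 8.92 and 8.91 in the Py8119 tumours, 9.17, 9.41, 9.91, 9.49 and 9.28 in the Mixed tumours and 8.03, 8.28, 9.64, 8.44 and 8.51 in the Py117 tumours. It was not called between Py8119 and Py117 tumours (0.28 ± 0.22, adjusted p = 0.374): Py117 tumour 3 stood above the Py8119 range and the other Py117 tumours below it. Without Py117 tumour 3 it was called higher in Py8119 tumours (0.55).

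The 4 sensors were all called at least 2-fold lower in Py8119 tumours. Ddx58 (17423987) read 8.53, 8.39, 8.41, 8.56 and 8.64 in the Py8119 tumours, 8.95, 9.20, 9.26, 9.03 and 9.10 in the Mixed tumours and 10.22, 10.49, 10.80, 10.44 and 10.62 in the Py117 tumours (-2.01 ± 0.10, adjusted p = 5.64e-11 by limma). Ifih1 (17385797) read 7.13, 7.17, 7.25, 7.68 and 7.53 in the Py8119 tumours, 8.07, 8.30, 8.73, 8.25 and 8.20 in the Mixed tumours and 9.66, 10.02, 10.70, 10.04 and 10.10 in the Py117 tumours (-2.75 ± 0.17, adjusted p = 4.49e-10). Both kept the 3 tumour groups apart, and both were lower in Py8119 than in Py117 cells in culture as well. Zbp1 (17395079) read 7.19, 7.13, 7.35, 8.01 and 7.83 in the Py8119 tumours, 8.58, 9.07, 10.21, 9.14 and 8.62 in the Mixed tumours and 9.34, 10.01, 11.18, 9.79 and 9.85 in the Py117 tumours. Its Py8119 and Py117 tumours did not overlap (-2.53 ± 0.32, adjusted p = 4.38e-06), but Mixed tumour 3 reached into the Py117 range. Dhx58, which encodes the regulator LGP2, averaged 6.64 ± 0.24 in the Py8119 tumours and 8.53 ± 0.60 in the Py117 tumours (SD, n = 5 each; -1.89, adjusted p = 1.46e-06).

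Among the 9 effectors that act on viral RNA and translation, 7 were called lower in Py8119 tumours. Ifit1 (17358832) read 6.72, 6.22, 6.99, 7.19 and 7.41 in the Py8119 tumours, 8.07, 8.10, 8.92, 7.98 and 7.95 in the Mixed tumours and 9.53, 10.42, 11.14, 9.68 and 9.96 in the Py117 tumours. Its level was 9.42-fold lower in Py8119 than in Py117 tumours (-3.24 ± 0.28, adjusted p = 4.11e-08 by limma), with the Mixed tumours between and no overlap. Oasl2 (17441037) read 8.14, 8.04, 7.92, 8.38 and 8.68 in the Py8119 tumours, 8.86, 9.30, 10.00, 9.42 and 9.25 in the Mixed tumours and 10.61, 11.04, 11.47, 10.87 and 10.98 in the Py117 tumours. It was 6.8-fold lower in Py8119 tumours (-2.77 ± 0.19, adjusted p = 2.76e-09). The synthetases Oas2 (-1.90) and Oas3 (-1.37), which make the activator of RNase L, the related Oasl1 (-2.10), the kinase gene Eif2ak2 that encodes PKR (-1.38) and Ifit2 (-0.94) were called lower as well. Ifit3 and the exonuclease gene Isg20 were not: Ifit3 averaged 7.20 ± 0.12 in the Py8119 tumours and 7.23 ± 0.13 in the Py117 tumours, and Isg20 averaged 8.19 ± 0.14 in the Py8119 tumours and 7.84 ± 0.63 in the Py117 tumours (without Py117 tumour 3 Isg20 was called higher in Py8119, at 0.58). The near copy Ifit3b, on its own probe set, averaged 3.89 ± 0.54 in the Py8119 tumours, a level at background, and 5.79 ± 0.66 in the Py117 tumours, and was called lower in Py8119 tumours (adjusted p = 6.97e-05). Ifit genes resemble each other in sequence, so how signal divides between these probe sets is uncertain.

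All 8 other antiviral effectors were called lower in Py8119 tumours. Cmpk2 (17274620), a mitochondrial nucleotide kinase, read 6.10, 6.46, 6.23, 6.78 and 6.80 in the Py8119 tumours, 7.40, 7.59, 8.24, 7.66 and 7.62 in the Mixed tumours and 8.74, 9.70, 11.13, 9.34 and 9.37 in the Py117 tumours. The difference was -3.18 ± 0.31 (9.06-fold lower in Py8119, adjusted p = 2.01e-07 by limma), with no overlap between any 2 tumour groups. Rsad2, which encodes viperin, differed by -2.68 ± 0.32 (adjusted p = 2.15e-06). Bst2 (17510345) read 9.93, 10.25, 10.25, 10.02 and 10.57 in the Py8119 tumours, 10.80, 10.92, 11.60, 11.02 and 10.78 in the Mixed tumours and 11.00, 11.82, 12.31, 11.38 and 11.44 in the Py117 tumours. It was 2.62-fold lower in Py8119 than in Py117 tumours (-1.39 ± 0.21, adjusted p = 2.69e-05), the opposite of its order in culture. Ifitm3 (17497718) was bright in every group and read 11.38, 11.40, 11.24, 11.35 and 11.29 in the Py8119 tumours, 11.22, 11.40, 11.66, 11.56 and 11.45 in the Mixed tumours and 11.92, 12.30, 12.60, 11.88 and 11.93 in the Py117 tumours (-0.80 ± 0.13, adjusted p = 5.96e-05). Mx1 (-1.41), Mx2 (-2.04) and Trim30a (-1.27) were at background in Py8119 tumours. With values under background raised to it, their differences were -0.98, -1.64 and -1.13, in that order. Samd9l had the smallest called difference of this group (-0.57 ± 0.19, adjusted p = 0.0258) and lost its call without Py8119 tumour 3 or Py117 tumour 2 (differences -0.55 to -0.53). It was -0.34 without Py117 tumour 3.

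Isg15, the ubiquitin-like modifier, and its partners were lower too. Usp18 (17462437), which removes Isg15 and restrains receptor signalling, read 7.10, 6.53, 6.92, 7.56 and 7.84 in the Py8119 tumours, 8.36, 8.57, 9.16, 8.52 and 8.47 in the Mixed tumours and 9.72, 10.54, 11.65, 9.68 and 9.86 in the Py117 tumours. It was 8.59-fold lower in Py8119 tumours (-3.10 ± 0.32, adjusted p = 4.01e-07 by limma), and the 3 groups stayed apart. Isg15 averaged 7.29 ± 0.38 in the Py8119 tumours, 8.39 ± 0.34 in the Mixed tumours and 9.35 ± 0.76 in the Py117 tumours (SD, n = 5 each; Py8119 minus Py117 -2.06, adjusted p = 1.21e-05). Herc6 (17458962) read 8.17, 8.06, 8.17, 8.33 and 8.43 in the Py8119 tumours, 8.49, 8.51, 9.34, 8.88 and 8.71 in the Mixed tumours and 8.60, 9.03, 10.36, 9.07 and 8.92 in the Py117 tumours (-0.96 ± 0.24, adjusted p = 0.0038). Herc6 and Bst2, both higher in Py8119 than in Py117 cells in culture, thus stood lower in Py8119 tumours. Parp14 (17330099) read 8.02, 7.90, 8.02, 8.38 and 8.17 in the Py8119 tumours, 8.75, 9.08, 9.75, 8.87 and 8.79 in the Mixed tumours and 9.18, 9.58, 10.64, 9.68 and 10.05 in the Py117 tumours (-1.73 ± 0.23, adjusted p = 6.27e-06). Its partner in antiviral complexes, Parp9, differed by -1.53, and the probe set shared by Dtx3l and Parp9 averaged 8.19 ± 0.17 in the Py8119 tumours, 8.77 ± 0.22 in the Mixed tumours and 9.41 ± 0.29 in the Py117 tumours. Rtp4 (17324446) read 7.79, 7.51, 7.91, 8.16 and 8.36 in the Py8119 tumours, 9.01, 9.25, 9.78, 9.14 and 8.80 in the Mixed tumours and 10.53, 10.76, 11.13, 10.56 and 10.72 in the Py117 tumours. The difference of -2.80 ± 0.18 (adjusted p = 8.18e-10) had no overlap. Xaf1, linked to cell death, differed by -1.57, and Ifi35 by -0.68 on its brighter probe set. The mean of both Ifi35 probe sets was not called (-0.36).

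Mixed tumours held intermediate levels of most members. Against Py117 tumours 26 members were called lower and 2 higher (background 16.9% and 19.2%), with a median of -0.87 against -0.03 over all genes, and 17 lay lower and 1 higher without overlap (background 10.8% and 14%). Against Py8119 tumours 12 were called higher and 0 lower by limma (0 lower at an unadjusted p under 0.05; background 1.61% and 0.162%), with a median of 0.71 against -0.03. In 25 members every Mixed tumour lay above every Py8119 tumour, as did 3.85% of all genes, and in 0 every one lay below (1.69%). These comparisons share the Mixed arrays. That with Py117 tumours gave a median of -0.63 without Py117 tumour 3, and that with Py8119 tumours called 24 members without Py117 tumour 3 (which enters only through the shared spread), 7 without Mixed tumour 3 and 6 without Py8119 tumour 1.

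Below Py117 tumours the furthest were Irf7 (-2.05 ± 0.25 log2, SE; adjusted p = 3.88e-06 by limma), Cmpk2 (-1.95 ± 0.31, adjusted p = 7.12e-05), Ifit1 (-1.94 ± 0.28, adjusted p = 2.44e-05) and Ifih1 (-1.79 ± 0.17, adjusted p = 1.86e-07). Irf1 (0.87 ± 0.22, adjusted p = 0.00457) and Ifnar1 (0.33 ± 0.08, adjusted p = 0.00277) were higher in the Mixed tumours. For Irf1, Py117 tumour 3 lay inside the Mixed range. Several smaller differences lost their call without single arrays. Bst2 (-0.57) lost it without Mixed tumour 1, 2, 4 or 5 or Py117 tumour 2 or 3 (differences -0.57 to -0.39), and Zbp1 (-0.91) without Mixed tumour 1, 2, 4 or 5 or Py117 tumour 2 or 3 (differences -0.91 to -0.62). Ifi35 (-0.45) lost it without Mixed tumour 1, 2 or 5 or Py117 tumour 2 or 3 (differences -0.43 to -0.27), Ifnar2 (-0.28) without Mixed tumour 1 or 2 or Py117 tumour 3 or 4 (differences -0.26 to -0.22), and Trim30a (-0.52) without Mixed tumour 1 or 4 (differences -0.47 to -0.42). For Bst2, Zbp1 and Ifi35 the smallest of these differences came without Py117 tumour 3.

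Above Py8119 tumours the furthest were Zbp1 (1.62 ± 0.32, 3.08-fold, adjusted p = 0.00918 by limma), Usp18 (1.43 ± 0.32, adjusted p = 0.024), Irf7 (1.38 ± 0.25, adjusted p = 0.0044) and Ifit1 (1.30 ± 0.28, adjusted p = 0.0179). The other 8 called members were Oasl2, Rtp4, Ifih1, Parp14, Stat2, Trim30a, Ddx58 and Irf9, from 1.25 for Rtp4 to 0.54 for Irf9. Single arrays decided 6 of the 12 calls. Usp18 lost its call without Py8119 tumour 1, 2 or 3 or Mixed tumour 2 or 3 (differences 1.26 to 1.44), and Ifit1 without Py8119 tumour 1 or 2 or Mixed tumour 3 (differences 1.12 to 1.25). Parp14 lost it without Py8119 tumour 1, 2, 3 or 5 or Mixed tumour 2, 3 or 4 (differences 0.78 to 1.00), and Stat2 (0.95) without Py8119 tumour 1, 2 or 3 or Mixed tumour 2, 3 or 4 (differences 0.80 to 0.97). Trim30a (0.75) lost it without Py8119 tumour 1, 3 or 4 or Mixed tumour 2 or 3 (differences 0.66 to 0.73), and Irf9 without Py8119 tumour 1 (difference 0.51). Zbp1, Irf7, Oasl2, Rtp4, Ifih1 and Ddx58 kept theirs without any 1 array.

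**Figure D4:**
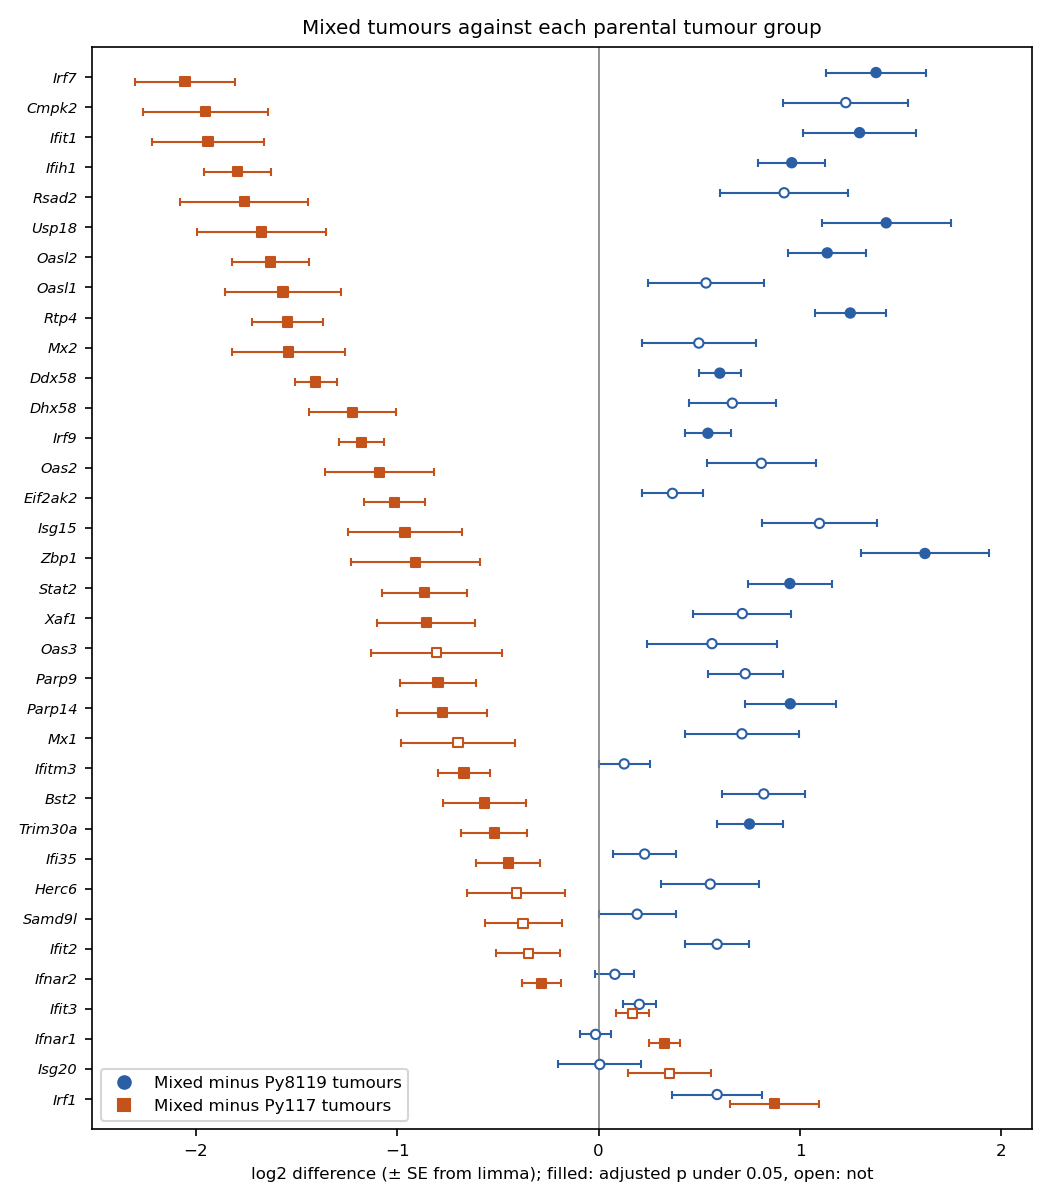
Difference of the Mixed tumours from the Py8119 tumours (circles) and from the Py117 tumours (squares) for each measured member (log2, x axis), with bars of 1 SE from limma and filled symbols where the adjusted p was under 0.05. For most members the circle lies right of 0 and the square left of it, and Irf1 lies right of 0 for both.

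The position of the Mixed tumours between the unmixed ones was read on the linear scale, as a percentage of the way from the Py117 mean to the Py8119 mean. Over the 25 members called at least 2-fold lower in Py8119 tumours the median position was 78.8%. It ranged from 54.2% for Bst2 to 88.6% for Oasl1 among those above background in the Py8119 tumours. For Mx1, Mx2 and Trim30a the Py8119 mean was at background, so their positions are uncertain and are not given. On the log2 scale the median was 58.9%. The 1169 genes of the whole table called at least 2-fold lower in Py8119 tumours had medians of 86.6% on the linear and 74.9% on the log2 scale. Zbp1, at 56.3 ± 34% (SD over 5 Mixed tumours), was spread most, since Mixed tumour 3 lay past the Py117 mean (-2.72%). Irf7, at 83.9 ± 8.59%, and Ifit1, at 83.7 ± 9.07%, lay nearer to the Py8119 mean in each Mixed tumour on the linear scale. On the log2 scale their positions were 59.9 ± 13.1% and 60.0 ± 12.5%. There Mixed tumour 3 lay nearer to the Py117 mean for both. Irf7 read 9.16 in it, between means of 10.57 in Py117 and 7.13 in Py8119 tumours. Ifit1 read 8.92, between 10.14 and 6.91. These positions are a description, since the members were chosen for this reading by their difference between the unmixed tumours.

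Against the average of both unmixed tumour groups on the log2 scale, 1 member was called higher and 2 lower (background 8.33% and 6.47%). Irf1 lay 0.73 ± 0.19 above the average (adjusted p = 0.0167 by limma), and its Mixed tumours were above all Py8119 tumours as well. That call was lost without Mixed tumour 3 (0.61). Ddx58 fell by 0.40 ± 0.09 below it (adjusted p = 0.00626) and Irf9 by 0.32 ± 0.10 (adjusted p = 0.0375). The Irf9 call was lost without Py8119 tumour 2, 3, 4 or 5 or Mixed tumour 1, 2 or 5 or Py117 tumour 2 (differences -0.32 to -0.23).

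Tumours within a group were spread, most of all in the Py117 group. The median SD over the members was 0.22 in the Py8119 tumours, 0.29 in the Mixed tumours and 0.55 in the Py117 tumours, against medians over all genes of 0.15, 0.15 and 0.205 in that order. Py117 tumour 3 was the highest of its group in 33 of the 35 members and Mixed tumour 3 in 31, while Py8119 tumour 5 was highest in 19. The same tumour was thus the highest of its group for most members. Usp18, for instance, was 11.65 in Py117 tumour 3, against 9.68 to 10.54 in the other 4.

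Interferon genes themselves were not called between the unmixed tumours, but several were too dim to show a difference. Of 18 measured ligand genes of types I and III, 0 were called higher and 0 lower in Py8119 than in Py117 tumours by limma (at an unadjusted p under 0.05, 0 higher and 0 lower). Of all genes, 21% were called higher and 16.5% lower. Ifnb1 had group means from 3.47 in the Py117 tumours to 3.85 in the Py117 cultures, all under background. Ifna2 read 3.67 to 4.10 in the Py8119 tumours and 3.52 to 3.98 in the Py117 tumours, also under background. Ifna6 read 4.67 to 5.20 in the Py8119 tumours and 4.51 to 5.43 in the Py117 tumours, mostly under it. The missing calls thus do not show that interferon expression was equal in these tumours. Ifna4 was called higher in tumours than in culture in both lines (0.66 in Py8119, 0.60 in Py117), but the Ifna genes are near copies of each other, so a single member cannot be read with certainty. Ifnl2 was lower in the Mixed than in the Py117 tumours (-0.44 ± 0.12, adjusted p = 0.00884). Ifng averaged 5.47 ± 0.12 in the Py8119 tumours, 6.12 ± 0.74 in the Mixed tumours and 5.81 ± 0.55 in the Py117 tumours, and no tumour comparison called it.

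Around the receptor, 13 genes outside the list were measured, and 5 were called lower and 0 higher in Py8119 than in Py117 tumours by limma (0 higher at an unadjusted p under 0.05), where 16.5% and 21% of all genes were called. Jak1, a kinase shared by the type I, II and III receptors, averaged 9.73 ± 0.09 in the Py8119 tumours and 10.97 ± 0.37 in the Py117 tumours (SD, n = 5 each; -1.24 ± 0.14, adjusted p = 1.43e-06 by limma). In culture it was lower in Py8119 too, at 9.60 ± 0.02 against 10.51 ± 0.01 in Py117 cells (-0.91 ± 0.08, adjusted p = 0.000257). Tyk2 was called in neither comparison (-0.05 in culture, 0.02 in tumours). Stat3 was lower in both (-1.52 in culture, -0.76 in tumours). The interferon lambda receptor gene Ifnlr1 was called lower in both as well, but its Py8119 level was at background in culture (5.03 ± 0.24, against 6.70 ± 0.20 in Py117 culture) and next to it in tumours (5.32 ± 0.15, against 6.55 ± 0.23 in Py117 tumours). Socs1, an inhibitor of Jak kinases, was higher in Py8119 cells in culture (1.09 ± 0.11, adjusted p = 0.000475) and not called in tumours (0.15).

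Of 16 sensing genes upstream of interferon, 8 were called lower and 2 higher in Py8119 than in Py117 tumours, against 16.5% and 21% of all genes. The higher ones were Irf3 (0.33), a transcription factor of interferon genes, and Cgas, the cytosolic DNA sensor. Cgas averaged 7.51 ± 0.07 in Py8119 culture against 5.13 ± 0.05, at background, in Py117 culture (called higher, adjusted p = 5.64e-06 by limma), and 6.55 ± 0.17 in Py8119 tumours against 5.36 ± 0.40 in Py117 tumours (called higher, adjusted p = 5.12e-06), where 3 of the 5 Py117 tumours were under the background level. Tlr3, which senses double-stranded RNA in endosomes, was lower in Py8119 in both (-2.37 in culture, -1.56 in tumours), as were Ddx58 and Ifih1 above. Sting1, which acts downstream of Cgas, was lower in Py8119 culture (-0.79 ± 0.14, adjusted p = 0.0049). The RNA-editing enzyme gene Adar was higher in Py8119 in culture (0.45) and lower in tumours (-0.99), and Samhd1 and Trim25 were lower in Py8119 tumours (-1.07 and -0.93).

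Most of the other interferon-stimulated antiviral genes were lower in Py8119 tumours too. Of 54 measured, 38 were called lower and 0 higher in Py8119 than in Py117 tumours by limma (0 higher at an unadjusted p under 0.05), with a median of -1.01 (16.5% of all genes were called lower and 21% higher). Oas1g (-3.23 ± 0.27, adjusted p = 2.57e-08 by limma), Phf11d (-2.74), Slfn5 (-2.34) and Trim14 (-2.22) differed most. Against culture, 40 of the 54 were called higher in Py8119 tumours and 43 in Py117 tumours, where 16.3% and 12.4% of all genes were. In culture 9 of the 54 were called higher and 7 lower in Py8119 cells, where 14.5% and 12.3% of all genes were called. Lgals3bp (2.88 ± 0.12, adjusted p = 9.31e-06 by limma) led the higher ones and Tdrd7 (-1.28) the lower ones. Sp100 was also called higher, at 6.90 ± 0.09 in the Py8119 cultures and 4.96 ± 0.43, at background, in the Py117 cultures.

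Genes best known as targets of interferon gamma differed more between Mixed and Py8119 tumours than between Mixed and Py117 tumours. Of 18 measured, 17 were called lower in Py8119 than in Py117 tumours (median -2.10), where 16.5% of all genes were. In Mixed tumours 13 were called higher than in Py8119 tumours (median 1.53), where 1.61% of all genes were. In Mixed tumours 4 were called lower than in Py117 tumours (median -0.34), where 16.9% of all genes were. The chemokine gene Cxcl9 averaged 7.52 ± 0.74 in the Py8119 tumours, 11.51 ± 0.57 in the Mixed tumours and 11.78 ± 0.83 in the Py117 tumours (SD, n = 5 each). It lay 1.86 ± 0.33 above the average of the unmixed tumours (SE, adjusted p = 0.00129 by limma). Iigp1, an interferon-induced GTPase, averaged 7.18 ± 0.43 in the Py8119 tumours, 10.75 ± 0.64 in the Mixed tumours and 11.55 ± 0.61 in the Py117 tumours, and lay 1.39 ± 0.27 above the average (adjusted p = 0.00214). Against that average, 4 of these 18 genes and 1 of the 35 members, Irf1, were called higher, where 8.33% of all genes were. The difference between the lists was not tested.

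Several lists of markers of host and carcinoma cells differed between the tumour groups. Their part in the results was not tested. Of all genes, 16.5% were called lower and 21% higher in Py8119 than in Py117 tumours. Leukocyte markers (8 of 8 measured) had mean levels of 8.79 ± 0.07 in the Py8119 tumours, 8.95 ± 0.15 in the Mixed tumours and 8.91 ± 0.27 in the Py117 tumours (SD, n = 5 each), with summed signals of 12.07 to 12.20, 12.12 to 12.56 and 11.90 to 12.54 (log2) in the same order of groups, so they overlapped, and 2 of 8 were called lower in Py8119 than in Py117 tumours. Macrophage markers (8 of 8) had means of 9.62 ± 0.12 in the Py8119 tumours, 9.74 ± 0.19 in the Mixed tumours and 9.09 ± 0.25 in the Py117 tumours (summed 12.96 to 13.34, 12.85 to 13.32 and 12.17 to 12.65). Their group mean was lowest in the group where the members were highest, though not so within that group, as given below. Of the 8, 7 were called higher and 1 lower in Py8119 than in Py117 tumours. T cell markers (8 of 10 measured) had means of 5.80 ± 0.12 in the Py8119 tumours, 6.59 ± 0.29 in the Mixed tumours and 7.13 ± 0.52 in the Py117 tumours, and 8 of 8 were called lower in Py8119 than in Py117 tumours (summed 8.78 to 9.06, 9.39 to 10.21 and 9.81 to 11.20). Among plasmacytoid dendritic cell markers (8 of 8), the source cells of much interferon, Siglech was at background in every group but the Py117 tumours, and Ccr9, Cd209d and Klk1 were at background in each group. Their means were 5.59 ± 0.10 in the Py8119 tumours, 5.91 ± 0.05 in the Mixed tumours and 6.61 ± 0.20 in the Py117 tumours, with 4 called lower and 1 higher in Py8119 than in Py117 tumours (summed 9.88 to 10.19, 10.18 to 10.46 and 11.28 to 11.68). The median difference over these 8 was -0.49, while Ly6d alone differed by -4.96 (6.03 in Py8119 and 10.99 in Py117 tumours). The other 4 markers (Ly6d, Tcf4, Cox6a2 and Pacsin1) had means above background in both cultures, which are labelled as carcinoma lines.

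Stromal markers were also lower in Py8119 than in Py117 tumours: 8 of 8 endothelial, 8 of 8 fibroblast and 8 of 9 adipocyte genes were called lower, as were 6 of 8 epithelial genes. Endothelial markers (8 of 8) had means of 6.86 ± 0.19, 7.20 ± 0.07 and 8.54 ± 0.29 in Py8119, Mixed and Py117 tumours (summed 9.95 to 10.49, 10.52 to 10.75 and 11.56 to 12.25). Fibroblast markers (8 of 8) had 7.90 ± 0.38 in the Py8119 tumours, 8.15 ± 0.27 in the Mixed tumours and 9.53 ± 0.44 in the Py117 tumours (summed 11.30 to 12.28, 11.61 to 12.33 and 12.59 to 13.68). Adipocyte markers (9 of 10) had 5.84 ± 0.30 in the Py8119 tumours, 5.88 ± 0.19 in the Mixed tumours and 7.30 ± 1.27 in the Py117 tumours (summed 8.93 to 9.92, 9.10 to 9.99 and 9.45 to 12.51), with Adipoq, Lep and Pparg at background in the Py8119 and Mixed tumours. In Py117 tumour 3, where the members were highest, the adipocyte mean was 6.04, near the low end of its group. Leukocyte and macrophage means there, 9.19 and 9.37, were the highest of the group. Endothelial and epithelial means there, 8.08 and 8.92, were the lowest, and the other lists lay between. In Mixed tumour 3 the leukocyte, macrophage, T cell, dendritic cell and epithelial means were the highest of the group and the adipocyte mean the lowest. How these lists go with the members was not tested. Epithelial markers (8 of 8) had 6.53 ± 0.08 in the Py8119 tumours, 7.56 ± 0.16 in the Mixed tumours and 9.08 ± 0.19 in the Py117 tumours (summed 10.44 to 10.71, 10.98 to 11.42 and 12.60 to 13.18), and 6.48 ± 0.09 in Py8119 against 10.10 ± 0.06 in Py117 culture. Epcam, Esrp1 and Cldn4 were at background in Py8119 culture and tumours, where Epcam read 5.13 in Py8119 tumours against 10.27 in Py117 tumours. With the leukocyte level of each tumour as a covariate 30 members were called lower in Py8119 than in Py117 tumours, and with the adipocyte level 31. Leukocyte levels overlapped between the tumour groups and the other lists were not used as covariates, so these fits do not test the part of host cells.

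**Figure D5:**
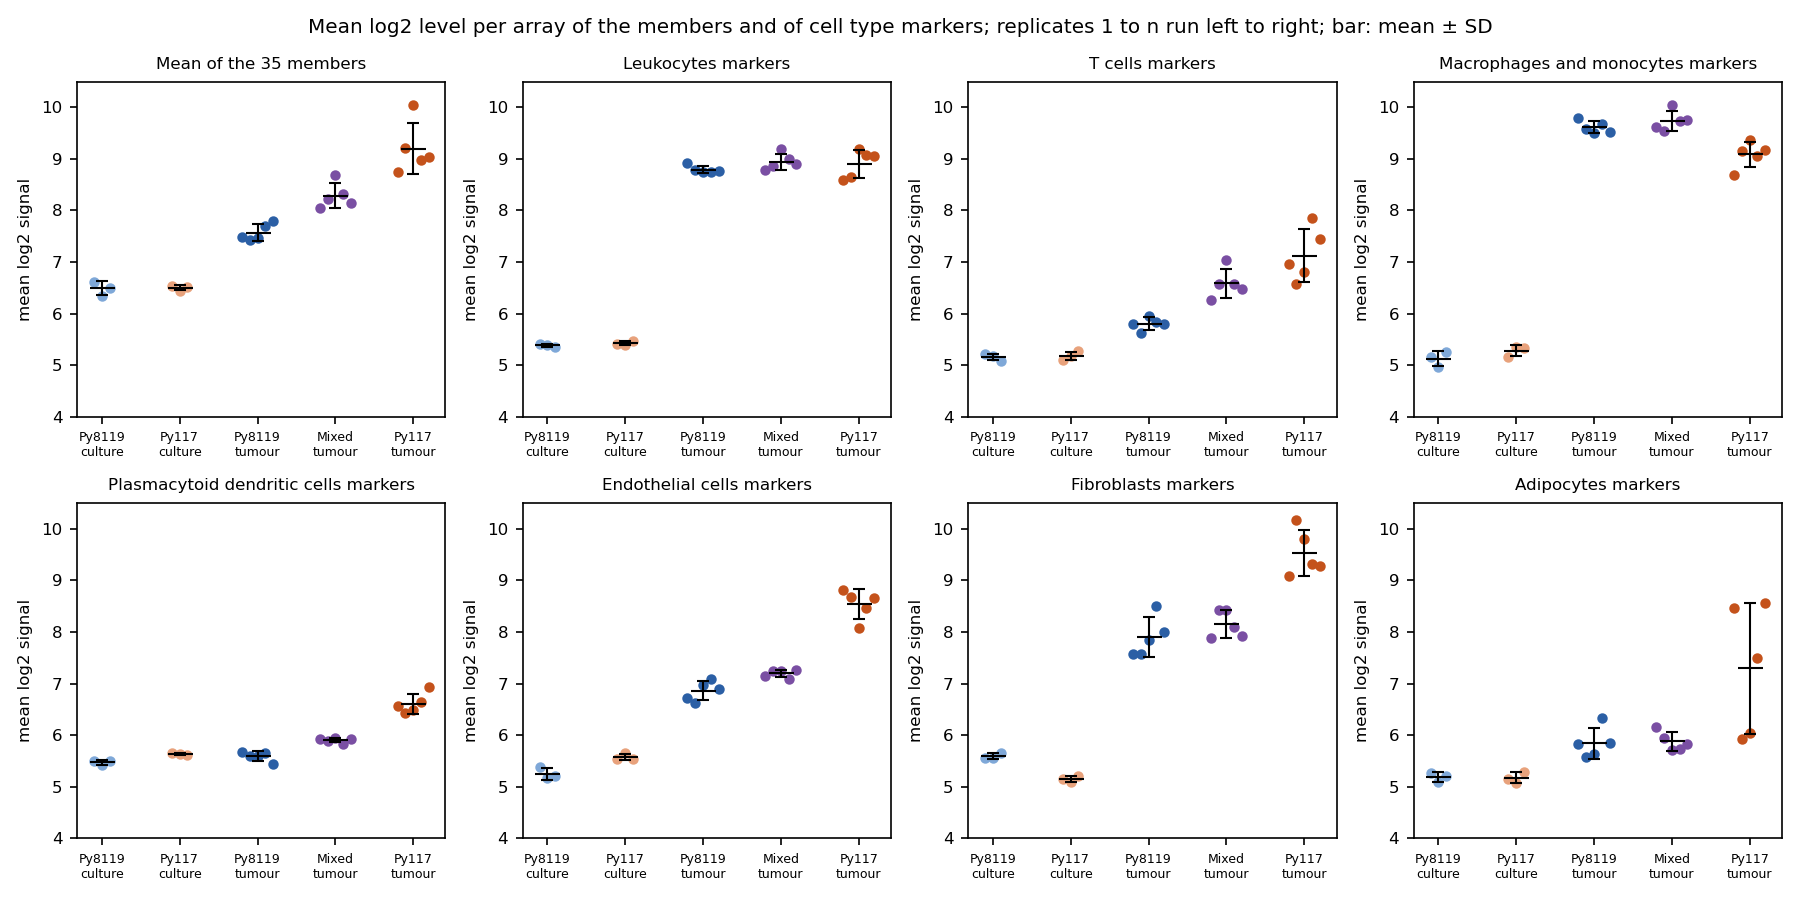
Mean log2 level per array (points) of the 35 members and of 7 marker lists, with the group mean and SD (bars, n = 3 for cultures and 5 for tumours). T cell, endothelial, fibroblast and adipocyte markers are highest in the Py117 tumours as the members are, leukocyte markers overlap between tumour groups, and macrophage markers are lowest of the tumour groups in Py117.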

How the data were processed

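Total RNA from cultured cells and whole tumours was labelled with the Affymetrix WT PLUS kit and hybridised, 1 array a sample, per the labels' protocols. The authors deposited log2 expression values per probe set, per the submitters' processing notes made with RMA. These notes also name limma and no version is used here. RMA, a method that corrects background, equalises array distributions and summarises probes, compresses differences of dim probe sets, and shared scaling makes every level relative to its array. Of 41345 probe sets, 23521 carried 1 gene symbol, 1814 several and 16010 none. Only those with 1 symbol were used, and the probe set with the highest mean stood for a gene, which gave 22180 genes (1082 with several probe sets). Groups came from the labels. Differences were tested on the deposited log2 values with lmFit and eBayes of limma 3.58.1 in R 4.3.3. The 6 culture arrays were in 1 fit and the 15 tumour arrays in another. Tumour against culture was fitted in each line on its own 8 arrays, and the interaction on the 16 arrays of unmixed lines. P-values were Benjamini-Hochberg adjusted over all genes within each comparison, at a threshold of 0.05, and n is the number of arrays. The number of arrays limits the precision. Each p-value sets a difference against the spread between these samples within their groups, which limma moderates over all genes, and against no other source of variation. The scripts (Python 3.11.15) were tested on simulated data. The 95th percentile of olfactory and vomeronasal receptor genes served as the background level, and a floor at that level is among the alternatives. Every member is accounted for by role. Values per array are given for up to 4 members with the largest called difference in each direction of each comparison and for Irf1, Irf7, Irf9, Stat2, Ifnar1 and Ifnar2. Pathway lists give up to 4 genes a direction by the same rule, with Jak1, Tyk2, Ifnb1, Ifng and Cgas. Ifit3b, Sting1 and Epcam were named after their values were seen where that rule did not name them. The members, gene lists and tests were chosen with earlier results of these data known. Alternatives covered scaling, floor, filter, prior, array weights, joint fit, replicate block, threshold, marker covariates and leaving out each array. Promoter windows came from RefSeq (GRCm38.p6). The array's genome build is not given in the sources used here, so probe set positions are not printed.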

Additional observations from a re-analysis of the deposited data

Results flagged for a closer look

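In 8 of 105 sets of 5 tumours for 1 gene, 1 tumour stood apart from its group by Dixon's criterion, which chance alone meets in about 1 of 20 sets. Mixed tumour 3 was high for Ifit1 (8.92, against 7.95 to 8.10 in the other 4), for Usp18 (9.16, against 8.36 to 8.57) and for Bst2 (11.60, against 10.78 to 11.02). Py117 tumour 3 was high for Mx1 (7.78, against 5.72 to 6.06), for Oas2 (10.04, against 8.32 to 8.59) and for Herc6 (10.36, against 8.60 to 9.07). Py8119 tumour 1 was low for Irf9 (7.75, against 7.90 to 7.95), and Py8119 tumour 4 was low for Ifnar1 (10.07, against 10.20 to 10.25). These sets are not independent, since the members share their arrays.

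For 26 members the tumour minus culture difference itself differed between the lines (interaction by limma, Py8119 minus Py117). Among the effectors on viral RNA it was -4.10 for Ifit1, -1.21 for Ifit2, -1.99 for Oas2, -2.71 for Oasl2 and -1.26 for Eif2ak2. It was -2.10 for Isg15, -3.05 for Usp18 and -1.74 for Herc6. Other antiviral effectors had -1.59 (Mx1), -2.19 (Mx2), -2.72 (Rsad2), -3.32 (Cmpk2) and -3.05 (Bst2). Transcription factors had -3.42 (Irf7), -1.66 (Irf9) and -1.56 (Stat2). Sensors had -0.63 (Ddx58), -1.44 (Ifih1), -1.86 (Dhx58) and -1.94 (Zbp1). The remaining lower ones were Parp9 (-1.59), Parp14 (-1.72), Ifi35 (-0.92), Xaf1 (-1.76) and Rtp4 (-3.05). Ifnar1 alone among the called members had a positive value (0.67). Ifit2 was the only one of these whose mean differed from culture in opposite directions, at -0.38 in Py8119 (not called) and 0.83 in Py117.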

How the results depend on the processing

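The members followed were those with the largest called differences in each comparison, with Irf1, Irf7, Irf9, Stat2, Ifnar1 and Ifnar2. No call among them changed sign under the planned settings. Of 1686 values, 1607 kept their side of the threshold, 58 lost the call and 21 gained it. A change of sign between uncalled differences was not counted. In culture, lower members numbered 8 with dim genes left out (32 members tested) and 8 with an intensity trend and robust prior, against 3, and higher ones numbered 2 in 1 fit of all arrays, where Ifit1 and Herc6 lost their call, against 4. Ifitm3 lost its culture call with centring on the array median (-0.26). For Py8119 against Py117 tumours, higher members numbered 3 with array weights and 2 with a leukocyte covariate (Irf1 among them), against 1. For Mixed against Py117 tumours they numbered 1 with an adipocyte covariate, against 2. For Mixed against Py8119 tumours higher members numbered 6 with the floor, 23 with array weights and 6 at a threshold of 0.01, against 12. Against the average of the unmixed tumours, 1 was lower with the floor, 2 were higher and 4 lower with array weights, 0 higher and 8 lower with the adipocyte covariate, 4 lower with the leukocyte covariate, and 0 higher and 1 lower at 0.01, against 1 higher and 2 lower. For Py117 tumours against culture 1 was lower with array weights, and for Py8119 tumours 1 (Ifit2) was lower with quantile normalization, centring, dim genes left out, the intensity trend and array weights, against 0 in each line. In the interaction 2 were higher with array weights, against 1. Apart from what the alternatives' construction fixes, the cause of these moves was not tested. Leaving out 1 array at a time gave, for higher and lower members, 3 to 4 and 2 to 5 in culture, 1 to 3 and 30 to 31 for Py8119 against Py117 tumours, 2 to 3 and 21 to 29 for Mixed against Py117, 6 to 24 and 0 for Mixed against Py8119, 0 to 2 and 1 to 4 for Mixed against the average, 31 to 33 and 0 to 1 for Py117 tumours against culture, 28 to 31 and 0 to 1 for Py8119 tumours against culture, and 1 to 2 and 23 to 26 in the interaction. The array behind the 3 and the 24 was Py117 tumour 3, and without it Py117 tumours against culture had 1 lower member and the interaction 2 higher ones. Without Py8119 tumour 1, Py8119 tumours against culture had 1 lower member. Replicate numbers gave no uniform pairing: deviations of same-numbered samples correlated between -0.23 and 0.26, and 6 of 36 were over 0.1. Samples of different numbers correlated between -0.28 and 0.21. For Py117 and Mixed tumours 1 to 5 the same-numbered values were 0.16, 0.09, 0.26, 0.18 and -0.05, in that order. In both of these groups tumour 3 was highest and tumour 1 lowest for most members. Whether same-numbered tumours shared a batch was not tested. With the replicate block the culture comparison had 5 lower members against 3. Array medians over all genes differed by -0.15 between Py8119 and Py117 culture, -0.10 between Py8119 and Py117 tumours, 0.16 for Py117 and 0.21 for Py8119 tumours against culture, and centring subtracts these amounts from each difference. It took the share of higher ones among all called genes to 70.4% against 54.0% in culture, 68.0% against 56.0% between Py8119 and Py117 tumours, 79.5% against 90.9% for Mixed against Py8119 tumours, 22.6% against 40.5% for Py117 and 20.7% against 43.8% for Py8119 tumours against culture. Signal near background limits what can be said of Mx1, Mx2, Trim30a and Ifit1 in the groups where they were dim. In Py117 culture the means of Cmpk2 (5.33), Rsad2 (5.52), Irf7 (5.53) and Oas2 (5.54), among others, were just above background. The sizes of their rises in tumours are uncertain for that reason.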

Other observations

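The probe set shared by Oas1a and Oas1g averaged 5.86 ± 0.45 in the Py8119 tumours, 6.74 ± 0.46 in the Mixed tumours and 7.79 ± 0.19 in the Py117 tumours (SD, n = 5 each), and 5.00 ± 0.47 in Py8119 against 5.31 ± 0.17 in Py117 culture (n = 3 each). The probe set shared by Dtx3l, which partners Parp9 as a ubiquitin ligase, averaged 6.78 ± 0.19 in Py8119 and 7.12 ± 0.14 in Py117 culture. A second, dimmer probe set of Ifi35 averaged 6.26 ± 0.18 in the Py8119 tumours, 6.03 ± 0.17 in the Mixed tumours and 6.29 ± 0.41 in the Py117 tumours, while the brighter one averaged 8.51 ± 0.11, 8.74 ± 0.17 and 9.19 ± 0.43 in these groups in the same order. Ifit3, whose promoter holds 2 ISRE matches, averaged 7.20 ± 0.12 in the Py8119 tumours, 7.40 ± 0.03 in the Mixed tumours, 7.23 ± 0.13 in the Py117 tumours, 6.91 ± 0.13 in Py8119 culture and 6.84 ± 0.44 in Py117 culture. The near copy Ifit3b averaged 3.89 ± 0.54 in the Py8119 tumours, 4.59 ± 0.52 in the Mixed tumours, 5.79 ± 0.66 in the Py117 tumours, 3.72 ± 0.99 in Py8119 culture and 3.49 ± 0.39 in Py117 culture, so all its groups but the Py117 tumours were at background.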
